A study of Mus musculus with 4 samples.

Results

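The genes described here encode the synaptonemal complex and the cohesin of meiosis. They were chosen by name: all probe sets whose platform symbol was Sycp1, Sycp2, Sycp3, Syce1, Syce2, Rec8, Smc1b, Stag3, Hormad1 or Hormad2. All 10 genes were measured, each by 1 probe set, among 18193 genes named on the arrays. Affymetrix oligonucleotide arrays were hybridised with RNA of 4 mouse cultures, 1 array per culture. Germline stem (GS) cells, which are spermatogonial stem cells propagated in culture, and their counterparts from Trp53 knockout mice, whose label also names ICR, were kept in a modified StemPro medium. Multipotent germline stem (mGS) cells, which resemble embryonic stem cells and derive from germline cultures, and the embryonic stem (ES) cell line R1 were kept in an ES cell medium. The age of the animals, the strain of the GS and mGS cells and the number of animals behind each culture are not given in the sources used here. Each group is thus a single culture, so no difference has a replicate check or a p-value.

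In meiotic prophase, homologous chromosomes are joined along their length by the synaptonemal complex. Its lateral elements form on a chromosome axis that cohesin holds together, and transverse filaments reach across to a central element in the middle. Spermatogonia divide by mitosis and come before this stage, although mouse spermatogonia are known to transcribe some meiotic genes in advance. In ES cells, many germline genes are known to be silenced by DNA methylation and by a variant Polycomb complex.

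Signals are given after quantile normalisation, on a linear scale. The median of each array, a signal of 82.7, served as a floor. Lower signals were raised to the floor, so that a difference against them is a bound, given as at least N-fold. Where both signals of a gene lay below the floor, no difference was taken. The counts are of genes at least 2-fold apart. Signals of different probe sets depend on the probes and were not set against each other. All 10 genes were above the floor on the GS array and on the knockout GS array, 9 on that of mGS cells and 5 on that of ES cells. Of all 18193 genes, 10141 were above it on both GS and knockout GS, 9635 on both GS and mGS and 9700 on both GS and ES. The 5 of 10 on ES was thus near the share of all genes.

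The label of the GS arrays was checked against 10 markers of undifferentiated spermatogonia, of which 8 were measured and all 8 were above the floor on both GS arrays and 7 on each of the mGS and ES arrays. Their summed signals were 29579 on GS, 33335 on knockout, 10755 on mGS and 12807 on ES. The single markers did not all follow these sums. Against GS, 4 of the 8 were at least 2-fold lower on the knockout and no marker higher, with a median of -0.68. On mGS 6 were lower and 1 higher, and on ES 6 were lower and 2 higher. Over all genes, 6.93%, 16.5% and 17.2% were lower and 9.77%, 15.3% and 17.4% higher, in that order. All 10 pluripotency markers were above the floor on the mGS and ES arrays, against 6 on the GS array and 7 on the knockout array. Of 15 markers of late meiotic and haploid germ cells, 3 were above the floor on the GS array, 4 on the knockout array and 2 on each of the mGS and ES arrays. The late markers had summed signals of 1113 on GS, 1943 on knockout, 672 on mGS and 507 on ES. The protamine gene Prm2, the transition protein genes Tnp1 and Tnp2, the acrosomal genes Acrv1 and Acr and the spermatogenic glycolysis gene Pgk2 were under the floor on all 4 arrays. Ldhc was above the floor on all 4 arrays, Piwil1 and Zpbp on both GS arrays and Meig1 on the knockout array. The other protamine gene Prm1 was just above it on mGS and ES, at 92.1 and 89.5. The summed signal of 12 fibroblast markers was 3786 on GS, 6988 on knockout, 21510 on mGS and 66709 on ES, and its part in the differences was not tested. Of the 12, 8 were above the floor on GS, 9 on knockout, 7 on mGS and 11 on ES. The largest mGS signals were those of Fn1 at 10096 and Vim at 7871. Against GS, 5 of 8 compared were at least 2-fold higher on mGS and 1 lower. On ES 10 of 11 were higher, and on the knockout 4 of 9. Of 8 Sertoli cell markers 4 were above the floor on GS, 3 on knockout, 4 on mGS and 6 on ES, and of 4 measured Leydig cell markers 1, 1, 2 and 2. The Sertoli markers summed to 816, 609, 9192 and 2551 in that order, with Rhox5 alone at 7866 on mGS and 1624 on ES. Against GS, 2 of 5 compared were at least 2-fold higher on mGS and 1 lower. The Leydig markers summed to 180, 210, 474 and 221. The dap control RNAs, added before labelling, had a median signal of 271 on GS and 255 on mGS against 2545 on ES and 3055 on knockout. In cultures measured as a whole, fewer cells of a type and less RNA per cell cannot be told apart.

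**Figure D1:**
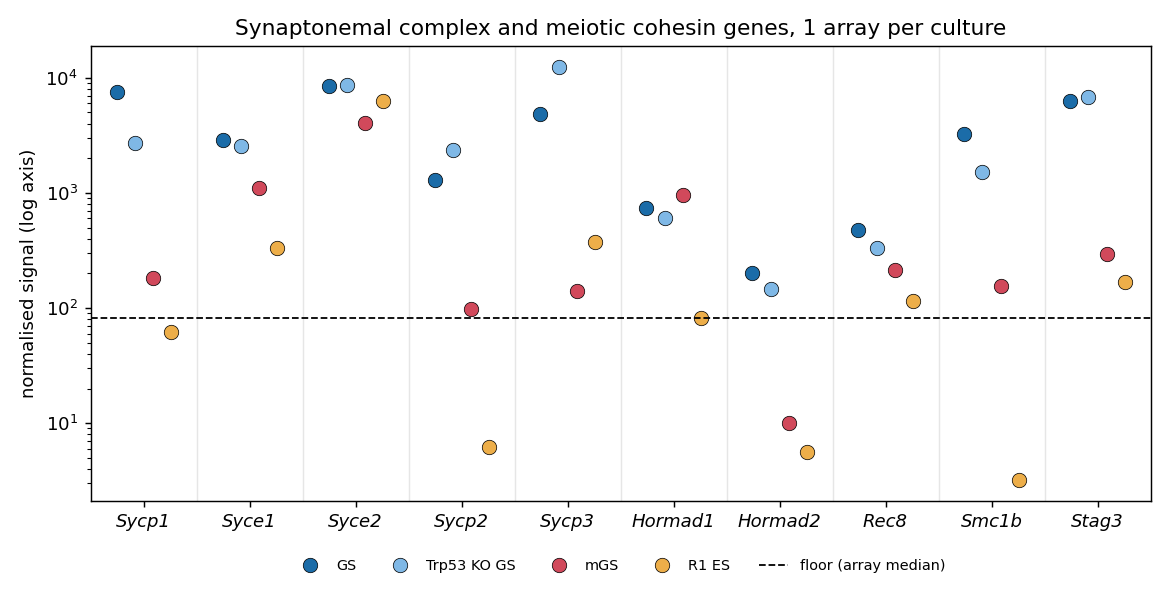
Normalised signal of the 10 genes on each of the 4 arrays, on a log axis, with the floor at 82.7 as a dashed line. Each point is 1 array. For Sycp1, Sycp2, Sycp3, Smc1b and Stag3 both GS arrays lie far above the mGS and ES arrays, while Syce2 stays high on all 4 and Hormad1 is low on the ES array alone.

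Nearly all of these transcripts were lower on the mGS array than on the GS array, 5 of the 10 by at least 4-fold. On the mGS array 9 of the 10 genes were at least 2-fold lower and no gene was 2-fold higher, where 16.5% of the 11981 genes compared were at least 2-fold lower and 15.3% at least 2-fold higher. The median log2 difference of the 10 genes was -2.55, against -0.04 for all genes. Those 5 were the filament gene Sycp1, the lateral element genes Sycp2 and Sycp3 and the cohesin genes Smc1b and Stag3. Syce1, Syce2, Rec8 and Hormad2 passed 2-fold but not 4-fold, Hormad2 as a bound set by the floor. The medium also differed between these cultures, so that medium and cell type cannot be told apart.

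Sycp1 encodes the transverse filament protein that spans the complex. Its signal was 7563 on GS, 2732 on knockout GS, 181 on mGS and 61.8 on ES. Both GS arrays were high, and the ES array was under the floor. The mGS array was 41.7-fold below GS, rank 9 from the lowest among 9635 genes above the floor on both arrays. Against GS, ES was at least 91.5-fold lower.

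Syce1 and Syce2 encode proteins of the central element, to which the filaments attach. Syce1 read 2881 on GS, 2532 on knockout GS, 1098 on mGS and 335 on ES, so that it was 2.62-fold lower on mGS and 8.60-fold lower on ES than on GS. Syce1 was thus well above the floor in all cultures. Syce2 read 8436 on GS, 8723 on knockout GS, 4057 on mGS and 6226 on ES. Its level was high throughout, 2.08-fold lower on mGS and 1.35-fold lower on ES than on GS. With the values as deposited the mGS difference of Syce2 was -0.88 on the log2 scale, within 2-fold.

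Sycp2 and Sycp3 encode the partner proteins of the lateral elements. Sycp2 read 1286 on GS, 2372 on knockout GS, 97.8 on mGS and 6.24 on ES. It was 13.2-fold lower on mGS and at least 15.6-fold lower on ES than on GS. Sycp3 read 4873 on GS, 12489 on knockout GS, 139 on mGS and 373 on ES. Sycp3 was 35.0-fold lower on mGS and 13.1-fold lower on ES, and so kept a signal above the floor in both.

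Hormad1 and Hormad2 encode HORMA-domain proteins of the unsynapsed axis, which help to monitor pairing. Hormad1 read 743 on GS, 608 on knockout GS, 964 on mGS and 82.5 on ES. The mGS array lay 1.30-fold above GS, whereas the ES array was just under the floor and at least 8.98-fold lower than GS. Hormad1 was the only one of the 10 genes whose mGS signal exceeded that of both GS arrays. Hormad2 read 200.4 on GS, 147 on knockout GS, 10.02 on mGS and 5.58 on ES. It stood above the floor on the GS arrays only, so that mGS and ES were each at least 2.42-fold lower than GS. This bound rests on the floor: at the 60th percentile of the array it was -0.38 on the log2 scale for both, which left 8 of the 10 genes past 2-fold in each comparison, and with no floor the differences were -4.32 and -5.17.

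Rec8, Smc1b and Stag3 encode meiotic versions of the kleisin, SMC and SA subunits of cohesin. Rec8 read 478 on GS, 332 on knockout GS, 215 on mGS and 115 on ES, a 2.22-fold lower signal on mGS and a 4.15-fold lower signal on ES than on GS. Smc1b read 3222 on GS, 1515 on knockout GS, 157 on mGS and 3.21 on ES. It was 20.5-fold lower on mGS and at least 39.0-fold lower on ES. Stag3 read 6239 on GS, 6869 on knockout GS, 293 on mGS and 169 on ES, which is 21.3-fold lower on mGS and 36.9-fold lower on ES. The ES difference of Stag3 had rank 7 from the lowest among 9700 genes above the floor on both arrays.

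On the ES array 9 of the 10 genes were at least 2-fold below GS and no gene was 2-fold above it, where 17.2% of 12107 genes compared were below and 17.4% above GS by 2-fold. The median of the 10 genes was -3.44, against -0.03 for all genes. The comparisons of mGS and of ES with GS share the GS array. With the knockout GS array in its place, a comparison added after the values were seen, 7 of the 10 genes were at least 2-fold lower on mGS and 8 on ES, where 21.7% and 21.5% of all genes were. No gene of the 10 was 2-fold higher in these, where 17.3% and 18.8% of all genes were. In every pairing of an mGS or ES array with a GS or knockout GS array, 6 genes were at least 2-fold lower, namely Sycp1, Syce1, Sycp2, Sycp3, Smc1b and Stag3, where 8.38% of the 12897 genes that exceeded the floor anywhere were, and 7.65% were higher by the same rule. The narrowest of these pairings was 21.3-fold for Stag3, 15.1-fold for Sycp1, 13.2-fold for Sycp2, 13.1-fold for Sycp3, 9.66-fold for Smc1b and 2.31-fold for Syce1. With arrays centred on their medians Syce1 had a log2 difference of -0.996 for mGS against the knockout and left this count.

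**Figure D2:**
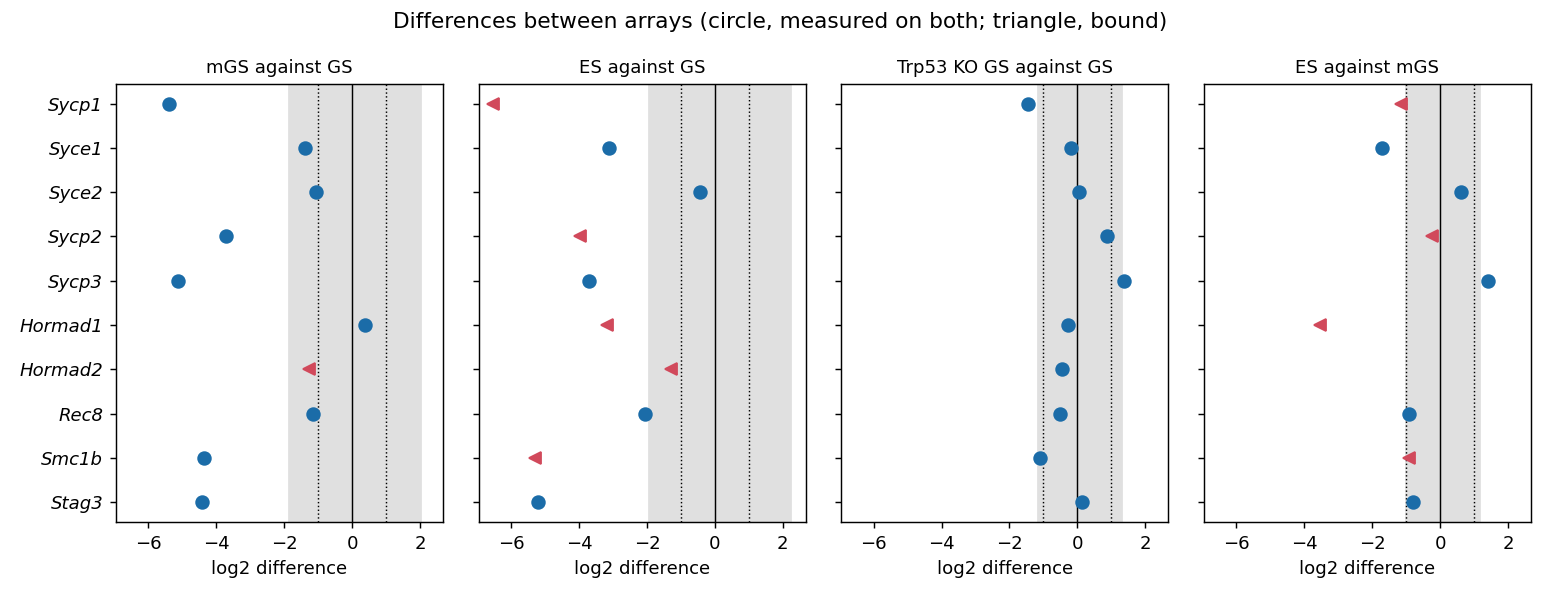
Log2 difference of each of the 10 genes in 4 comparisons. Circles were measured on both arrays, triangles are bounds against the floor, the grey band spans the 5th to 95th percentile of all genes compared and dotted lines mark 2-fold. Against GS, 5 genes on mGS lie below the band, from -3.72 for Sycp2 to -5.38 for Sycp1, while Sycp1 at -1.47 and Sycp3 at 1.36 lie just outside it on the knockout array.

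On mGS and ES against GS, transcripts of mitotic cohesin subunits differed less than those of Smc1b and Stag3. Smc1a, the mitotic counterpart of Smc1b, had log2 differences of -0.29 on mGS and 0.08 on ES against GS, where Smc1b had -4.36 and at most -5.28. Stag1 and Stag2, the mitotic counterparts of Stag3, had -1.01 and -0.42 on mGS and -1.08 and 0.04 on ES, where Stag3 had -4.41 and -5.21. Rad21, the mitotic kleisin, had -0.89 on mGS and -0.78 on ES, where Rec8 had -1.15 and -2.05. The difference between Rec8 and Rad21 on mGS was thus small, while Smc1b and Stag3 lay more than 3 log2 units from their counterparts. Smc3, which meiotic and mitotic cohesin share, had -0.86 on mGS and -1.36 on ES. Of 17 genes of mitotic cohesin and its regulators, 2 were at least 2-fold lower and 1 higher on mGS, with a median of -0.29, counts no larger than the 16.5% and 15.3% of all genes would give. Over the same genes, on ES 5 were lower, where 17.2% of all genes were, no gene was higher and the median was -0.57. The acetyltransferase gene Esco1 was 2.03-fold lower on mGS and 2.98-fold lower on ES, and Sgo2a, a protector of centromeric cohesin, was 2.73-fold higher on mGS.

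**Figure D3:**
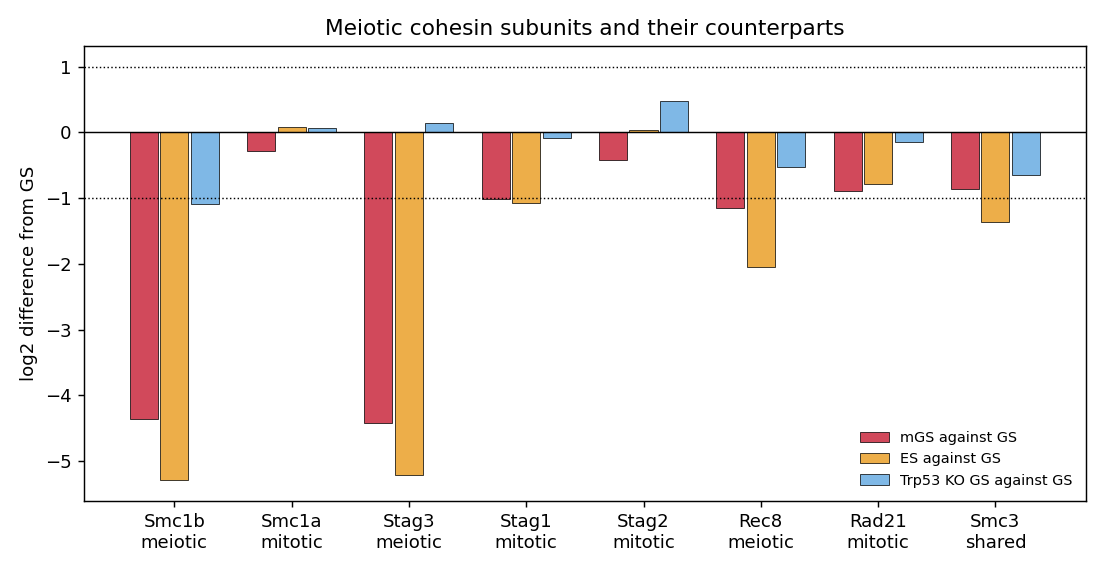
Log2 difference from GS on the mGS, ES and knockout GS arrays for meiotic cohesin subunits, their mitotic counterparts and the shared subunit Smc3. Bars start at 0, dotted lines mark 2-fold, and the ES bar of Smc1b is a bound. Smc1b and Stag3 reach below -4 on mGS, and the mitotic subunits lie between -1.01 and -0.29 there.

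Among other genes of the complex and its axis, some were lower as well. Of 15 such genes listed beside the 10, 10 were measured and 8 could be compared between mGS and GS, with 4 lower by 2-fold or more, where 16.5% of all genes were, no gene higher and a median of -1.66. Tex12, which encodes a central element protein, read 2682 on GS, 3386 on knockout GS, 86.4 on mGS and 29.9 on ES, and was 31.05-fold lower on mGS than on GS. Tex11, an X-linked gene needed for synapsis and crossing over, was 22.7-fold lower on mGS, and Syce3, of the central element, at least 8.66-fold. Terb2, which ties telomeres to the nuclear envelope, was 5.44-fold lower. Trip13, an ATPase that removes HORMA-domain proteins from the axis, was 1.32-fold lower. On ES the median was -2.51 over 7 genes, with Tex12 at least 32.4-fold, Tex11 at least 34.8-fold, Syce3 at least 8.66-fold and Terb2 at least 5.70-fold lower than on GS and no gene 2-fold higher.

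Of 15 recombination genes 12 were measured and 11 could be compared between mGS and GS, with 6 at least 2-fold lower, 1 higher and a median of -1.11, where 16.5% of all genes were lower and 15.3% higher. Rec114, a partner of the enzyme that makes meiotic breaks, was 6.30-fold lower, and the recombinase gene Dmc1 3.86-fold lower. The mismatch repair gene Mlh3, which also acts in crossing over, was 2.40-fold higher. On ES 7 of 11 were lower, no gene was higher and the median was -1.19, where 17.2% of all genes were lower and 17.4% higher. Mei1, Msh4 and Msh5 were under the floor on mGS and ES. They count as lower on both through bounds of 2.66-fold, 2.32-fold and 2.28-fold. Ccnb1ip1, needed for crossover maturation, was 11.1-fold lower on ES than on GS and 1.32-fold lower on mGS, a difference between the pluripotent arrays in the same direction as that of Hormad1. Spo11, which makes the breaks, read 123 on knockout GS and was under the floor on GS, mGS and ES, so that it gave no difference from GS on mGS or ES.

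Genes of meiotic entry were examined as well, of which 6 of 7 listed were measured. On mGS 3 were at least 2-fold lower than on GS and 2 higher, where 16.5% and 15.3% of all genes were. The median was -1.28. Dazl, an RNA-binding regulator of germ cells, was 45.2-fold lower, Meioc, whose protein extends the meiotic programme, 6.55-fold, and the retinoic acid responsive gene Stra8 at least 4.70-fold. The receptor gene Kit was at least 8.47-fold higher. On ES 3 were lower and 1 higher, with a median of -1.16, where 17.2% and 17.4% of all genes were.

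**Figure D4:**
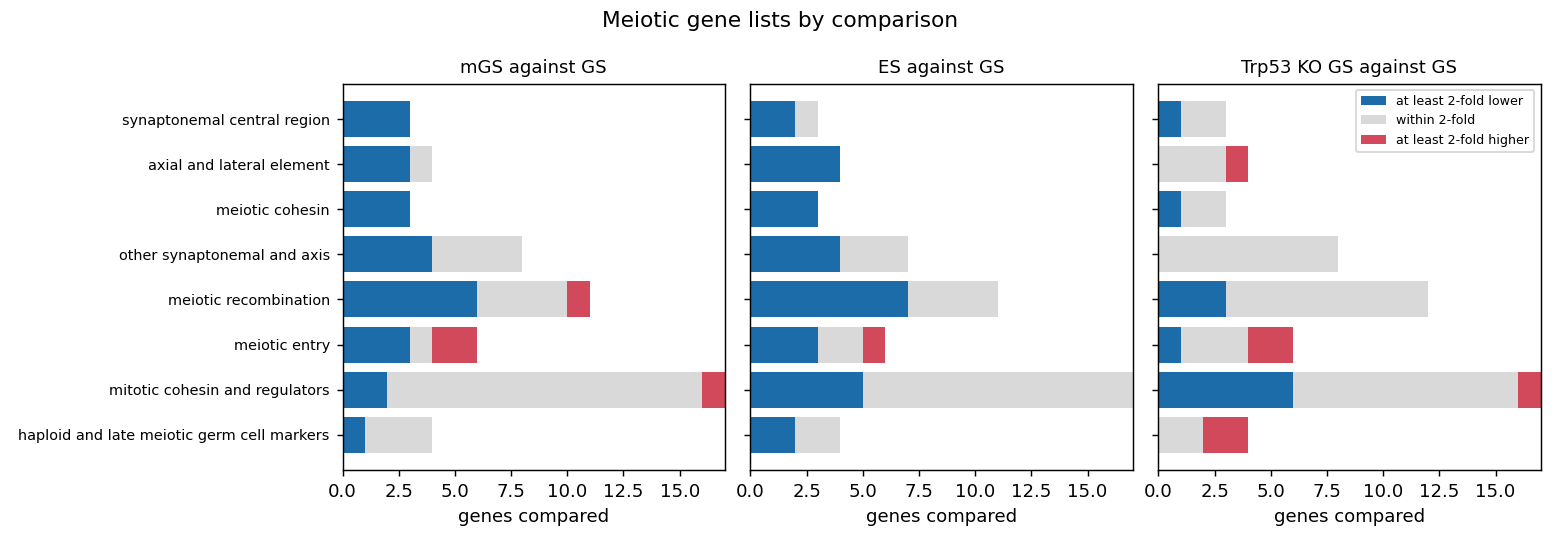
Number of genes at least 2-fold lower, within 2-fold and at least 2-fold higher than on GS, for 8 gene lists on the mGS, ES and knockout GS arrays. Blue takes all 3 meiotic cohesin genes on mGS and ES and 2 of the 17 genes of mitotic cohesin and its regulators on mGS.

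The promoters of the 10 genes were read from RefSeq, build GRCm38.p6, over 250 bases before and 50 after the annotated start, with the first entry used where a gene had several. All 10 genes matched. They held a median of 18.5 CpG dinucleotides in 300 bases, from 10 for Sycp2 to 30 for Stag3, against a median of 7 over all 32851 promoters of that length. Methylation was not measured here. The motifs searched on both strands were chosen after the sequences had been seen: TCCCGC, the core bound by the repressor E2F6, CACGTG, the E-box bound by MGA and MAX, and the CGCG motif TCTCGCGA. TCCCGC was found in 7 of the 10 promoters and in 20% of all promoters. CACGTG was found in 4 of the 10 and in 7.15% of all. TCTCGCGA was found in 3 of the 10, namely Sycp1, Smc1b and Stag3, and in 0.995% of all, and those 3 promoters also held TCCCGC. Among promoters with at least 10 CpG the shares were 40.3% for TCCCGC, 10.9% for CACGTG and 2.19% for TCTCGCGA. A match describes the letters and not a bound site. The windows below run from 180 bases before the start to 20 after it, 5′ to 3′ on the strand of the gene, with matches in capitals. Sycp1, Smc1b and Stag3 are shown as the 3 genes with the CGCG motif, all with large differences. Sycp3 is shown as a gene with a large difference without that motif, and Hormad1 for its high signal on mGS. Sycp2, 13.2-fold lower on mGS than on GS, held no match and is not shown.
Sycp1, chr3:102936081-102936280, minus strand: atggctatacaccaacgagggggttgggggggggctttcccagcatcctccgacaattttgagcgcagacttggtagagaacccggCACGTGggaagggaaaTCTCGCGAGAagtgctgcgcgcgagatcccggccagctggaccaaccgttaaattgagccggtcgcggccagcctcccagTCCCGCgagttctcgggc
Smc1b, chr15:85131938-85132137, minus strand: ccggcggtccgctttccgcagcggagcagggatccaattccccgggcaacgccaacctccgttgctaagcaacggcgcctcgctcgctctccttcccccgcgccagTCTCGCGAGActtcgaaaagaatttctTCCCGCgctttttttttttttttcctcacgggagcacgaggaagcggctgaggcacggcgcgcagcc
Stag3, chr5:138280329-138280528, plus strand: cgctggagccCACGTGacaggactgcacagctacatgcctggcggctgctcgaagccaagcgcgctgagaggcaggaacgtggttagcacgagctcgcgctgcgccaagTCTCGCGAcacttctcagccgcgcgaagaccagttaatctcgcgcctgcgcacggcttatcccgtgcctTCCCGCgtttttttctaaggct
Sycp3, chr10:88459407-88459606, plus strand: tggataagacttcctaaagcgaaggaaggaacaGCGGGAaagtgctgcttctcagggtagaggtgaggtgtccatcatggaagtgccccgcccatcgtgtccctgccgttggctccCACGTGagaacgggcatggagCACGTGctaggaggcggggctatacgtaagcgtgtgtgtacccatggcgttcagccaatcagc
Hormad1, chr3:95559497-95559696, plus strand: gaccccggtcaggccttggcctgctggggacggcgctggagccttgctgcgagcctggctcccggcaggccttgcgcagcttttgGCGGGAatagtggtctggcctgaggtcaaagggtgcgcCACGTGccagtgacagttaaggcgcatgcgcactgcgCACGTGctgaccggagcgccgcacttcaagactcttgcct
In Sycp1 and Smc1b the CGCG motif read on both strands overlaps itself, so that 10 letters are in capitals. Sycp3 and Hormad1 each held a pair of E-boxes and a TCCCGC match on the other strand. On mGS against GS, Sycp3 was 35.0-fold lower and Hormad1 1.30-fold higher. No match to these motifs was found in Syce1, Sycp2 or Hormad2.

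**Figure D5:**
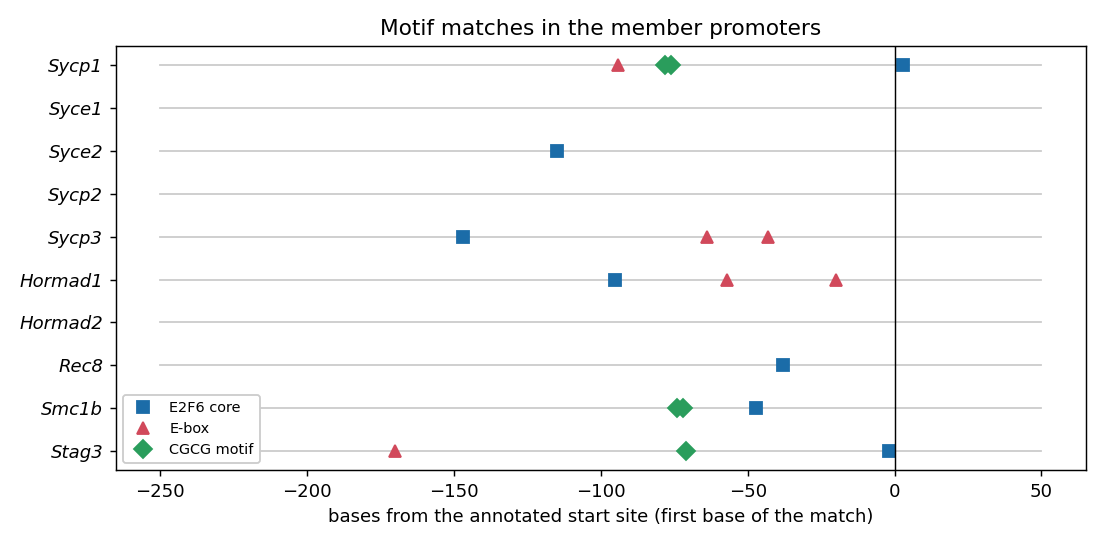
Position of each motif match in the promoters of the 10 genes, in bases from the annotated start, with 1 symbol per match. The CGCG matches of Sycp1, Smc1b and Stag3 begin between -78 and -71.

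ES and mGS cells were then compared, as pluripotent cultures kept in the same kind of medium. Of 9 genes compared, 3 lay at least 2-fold below mGS and 1 above it, where 5.13% of 11816 genes were lower and 6.9% higher. The median was -0.90, against 0.00 for all genes. Hormad1 was at least 11.7-fold lower on ES, Syce1 3.28-fold and Sycp1 at least 2.19-fold. Sycp3 went the other way, 2.68-fold higher on ES. With the values as deposited Sycp1 had a log2 difference of -0.99, within 2-fold. Hormad2 was under the floor on both arrays. Sycp2 and Smc1b were near or above the floor on mGS and far under it on ES, so that their bounds of -0.24 and -0.92 depend on the floor, and at the 30th percentile in its place they were -1.70 and -2.38, which made 5 genes lower. With no floor they were -3.97 and -5.61, beyond the -3.55 of Hormad1. The dap controls and the fibroblast signal differed between these arrays as given above, and their part was not tested.

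The knockout GS array differed from GS in both directions. Trp53 itself was not analysed here, and its signal therefore gives no check of the label. Of the 10 genes 2 lay at least 2-fold below GS and 1 above it, where 6.93% of 11623 genes were lower and 9.77% higher, and the median was -0.24 against 0.07 for all genes. Sycp1 was 2.77-fold and Smc1b 2.13-fold lower, and Sycp3 was 2.56-fold higher. With 32 added to each intensity Smc1b had a log2 difference of -0.996, within 2-fold, which left 1 gene lower. With arrays centred on their medians the median of all genes was -0.08, with 9.22% of genes lower and 7.21% higher, and Sycp3 had a log2 difference of 0.91, within 2-fold, which left no gene higher. Sycp2, the lateral element partner of Sycp3, read 1.84-fold above GS, and Stag3, Syce1, Syce2, Hormad1, Hormad2 and Rec8 lay between -0.53 and 0.14 on the log2 scale. Within that range Stag3 turned from 0.14 to -0.17 and Syce2 from 0.05 to -0.28 with arrays centred on their medians.

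Of the other lists on the knockout array, none of 8 further genes of the complex and axis differed by 2-fold, with a median of -0.0045. Among 12 recombination genes 3 were lower, no gene was higher and the median was -0.46, where 6.93% of all genes were lower and 9.77% higher. Dmc1 was 2.24-fold, Mnd1 2.18-fold and Psmc3ip 2.17-fold lower, and Mnd1 and Psmc3ip encode a complex that assists the recombinase. Among 6 entry genes, Stra8 was 7.19-fold and Kit at least 4.36-fold higher while Meioc was 3.10-fold lower. Of 17 genes of mitotic cohesin and its regulators 6 were lower and 1 higher, where 6.93% and 9.77% of all genes were. Their median was -0.64. The subunit genes Smc1a, Smc3, Rad21, Stag1 and Stag2 lay within 2-fold, between -0.64 and 0.47 on the log2 scale. Sgo2a was 3.79-fold, the acetyltransferase gene Esco2 3.69-fold, the separase gene Espl1 2.84-fold and Cdca5 2.29-fold lower. Pttg1, which encodes securin, the inhibitor of separase, was 2.27-fold higher. Of 4 late germ cell genes compared on this array, 2 were higher and no gene was lower, where 9.77% and 6.93% of all genes were. Ldhc and Piwil1 were 2.20-fold and 2.37-fold higher. Zpbp lay at -0.05 on the log2 scale and Meig1 was at least 1.35-fold higher. The bioC hybridisation control read 602 on the knockout array and between 3066 and 3499 on the others. The dap controls read 3055 on the knockout array and 271 on GS. The part of either control in these differences was not tested. The knockout label names ICR and the strain of the GS cells is not given, so that genotype and strain cannot be told apart.

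The 10 genes were not uniform in pattern. Their range over the 4 arrays, with the floor applied, ran from 1.10 log2 units for Syce2 to 6.52 for Sycp1. The mean profile, centred for each gene, stood at 1.59 on GS, 1.44 on knockout GS, -1.16 on mGS and -1.88 on ES. By Euclidean distance over the 4 arrays from that mean, Syce1 was the nearest of the 10 at 1.12, and Sycp3 and Hormad1 the farthest at 2.78 and 2.68. Among 12306 other named genes, those nearest to the mean profile were Rundc3b, Zfp711, Pwwp3b, Erap1 and Rec114, at distances from 0.08 to 0.29. Rundc3b read 1514 on GS, 1465 on knockout GS, 238 on mGS and 144 on ES.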

How the data were processed

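Per the labels' protocols, Trizol RNA was labelled as biotinylated cRNA. The table deposited by the authors holds linear intensities, 1 for each probe set on each array, and the program that summarised the probes is not named in those labels. After trimming 2% from each end, every array had a mean intensity of 500. Control probe sets, 64 of 45101, were set aside. Log2 medians spanned 0.29 between arrays and 75th percentiles 0.27, so log2 values were quantile normalised, which hides any change in total RNA. Probe sets with 1 platform symbol were kept, with symbols updated by gene identifier, and the probe set of highest mean stood for its gene.

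The 10 genes, the lists beside them and the motifs were chosen with earlier results of these data known. Of the other lists, at most 4 genes at least 2-fold different per comparison were to be named, largest first, with the mitotic counterparts of meiotic cohesin. Not every gene that met this rule was named. Spo11, Msh4, Msh5, Trip13, Pttg1, Dnmt3a, Mga, Pcgf6, Prm1, Meig1 and the late germ cell genes under the floor were named outside that rule after their values were seen. The 5 genes of like pattern were those at the smallest distance, with predicted genes left out. The steps were tested on simulated data, with lower signals planted on mGS in genes well above the floor. The handling of bounds was thus not tested. Python 3.11.15 was used with scipy 1.17.1, pandas 2.3.3 and numpy 2.4.6, and plots were drawn with matplotlib 3.10.9.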

Additional observations from a re-analysis of the deposited data

How the results depend on the processing

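The results were recomputed without normalisation, with arrays centred on their medians, with probe sets averaged per gene, without probe sets ending in _x_at, _s_at or _a_at, with probe sets of several symbols, with the floor at the 30th or 60th percentile or absent, and with 32 added to each intensity. The number of genes past 2-fold, lower and higher together, stayed within 1.5 times in every comparison. By direction, the lower genes for ES against mGS numbered 3 as reported and 5 with the floor at the 30th percentile, with no floor or with 32 added, and 2 as deposited, without those name endings or with the floor at the 60th percentile. For the knockout against GS the lower genes went from 2 to 1 with 32 added, and the higher from 1 to 0 with centred arrays. Centring the arrays shifted the median of all genes for ES against mGS from 0.00 to -0.10, with 6.42% of genes lower and 6.11% higher, and for mGS against the knockout from -0.09 to 0.04. A value was taken as moved when it changed by more than the standard deviation between probe sets of 1 gene, which was 0.50 for mGS against GS. Of 516 single differences 471 moved by less and 45 by more. Averaging probe sets and leaving out those name endings could not move a single difference, because each gene had 1 probe set. These settings gave 59 and 47 of the 471. Keeping probe sets of several symbols gave another 59, with the differences from GS unchanged. No difference of at least 2-fold changed sign. Of the smaller ones, for the knockout against GS, Syce2 changed sign as deposited, at -0.08, with centred arrays, at -0.28, and with 32 added, at -0.08, and Stag3 with centred arrays, at -0.17. The median for mGS against GS was -4.04 without probe sets ending in _x_at, _s_at or _a_at, which drops Syce2 and Hormad1, -3.23 with the floor at the 30th percentile and -4.02 with no floor. For ES against GS it was -4.44 with no floor. For ES against mGS it was -1.55 and -0.36 with the floor at the 30th and 60th percentiles. Against the knockout array, the mGS median was -2.24 and moved to -3.59, -3.27 and -3.57 without those probe sets, with the floor at the 60th percentile and with no floor. The ES median was -3.56 and moved to -4.52 without those probe sets and -4.89 with no floor. Each gene had 1 probe set, so no second probe set could check a value, and the single arrays limit the precision. No paired analysis was possible because each group has 1 array.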

Other observations

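Of 21 genes of the complexes known to silence germline genes in pluripotent cells, 20 were measured. Among 19 compared on mGS, 5 lay at least 2-fold above GS and 3 below it, with a median log2 difference of -0.22, where 15.3% of all genes lay above and 16.5% below. On ES 5 of 20 lay above and 1 below, with a median of -0.09, where 17.4% and 17.2% of all genes did. The cofactor of de novo DNA methylation Dnmt3l was at least 117-fold higher on mGS, and the methyltransferase genes Dnmt3b and Dnmt3a 3.82-fold and 2.24-fold. The heterochromatin protein gene Cbx1 was 3.05-fold higher. The maintenance methyltransferase gene Dnmt1 was 2.58-fold lower. E2f6, whose protein binds TCCCGC, read 1615 on GS, 5016 on knockout GS, 967 on mGS and 832 on ES, and was 3.11-fold higher on the knockout array than on GS. In that comparison 3 of 20 lay above GS and no gene below it, with a median of -0.12, where 9.77% and 6.93% of all genes did. The others above were Dnmt3l, at least 2.64-fold, and Max, 2.03-fold. Mga and Pcgf6, which encode a scaffold and a subunit of the variant Polycomb complex, lay within 2-fold between GS and both pluripotent arrays.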
